A study of Mus musculus with 12 samples.

Results

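The miR-378 family was followed in gastrocnemius muscle of young and aged mice. Its members were taken by name from the table of mature microRNAs (miRNAs), and 5 of 1900 mature miRNAs belonged to it: both arms of miR-378a (mmu-miR-378a-3p and mmu-miR-378a-5p) and the paralogs mmu-miR-378b, mmu-miR-378c and mmu-miR-378d, written below without the prefix. Small RNA had been sequenced from male C57BL/6 mice, one library per muscle, with 6 young animals at 6 months and 6 aged animals at 24 months. No animal of either age carried a transgene or was given a treatment, as far as the labels and methods say, so age was the only named difference. Levels are log2 of FPKM, that is, read numbers divided by miRNA length and by the size of the library. FPKM corrects for nothing else, so comparisons between miRNAs are of values in the libraries and not of molecules in muscle. All 5 members had a value above 0 in all 12 libraries.

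A miRNA hairpin gives rise to a 5p and a 3p strand, one of which is usually kept as the guide that pairs with target mRNAs through its seed, bases 2 to 8, while the other is mostly degraded. miR-378a lies in an intron of Ppargc1b, the gene of PGC-1β, a coactivator of mitochondrial biogenesis and fatty acid oxidation. Its 3p strand is known to repress carnitine acetyltransferase, and the 5p strand to repress MED13, ERRγ and GABPA, all of them linked to mitochondrial energy metabolism. In cultured myoblasts miR-378a-3p also represses MyoR, an antagonist of MyoD. Less is known of the paralogs.

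The hairpins lay apart in the genome. In mm10 the hairpin of miR-378b (chromosome 11, 88352773 to 88352864, plus strand) lay within an intron of Msi2 and that of miR-378c (chromosome 14, 46954830 to 46954928, minus strand) within an intron of Samd4, each opposite to the strand of the host. No annotated gene spanned the miR-378d hairpin (chromosome 10, 126710282 to 126710391, minus strand).

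The mature sequences of the paralogs are shown because their likeness bears on how far their reads can be told apart. RefSeq sequences on GRCm38.p6 were matched for 3 of the 5 members and are written 5′ to 3′ with the seed in capitals. Both arms of miR-378a had no match, so the likeness of the paralogs to miR-378a-3p, which bears on the same point, is not shown.
miR-378b: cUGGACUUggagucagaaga
miR-378c: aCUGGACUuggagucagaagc
miR-378d: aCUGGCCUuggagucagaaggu
The seeds of these 3 differ from each other. miR-378b and miR-378c shared an unbroken run of 19 bases, offset by 1 base, and over the bases that overlap they differed only by A20C, counted from the 5′ end of miR-378b. The offset shifts the seed of miR-378b by 1 base, to UGGACUU against CUGGACU in miR-378c. Between miR-378c and miR-378d the differences over 21 aligned bases were A6C, inside the seed, and C21G, counted from the 5′ end of miR-378c. All 3 shared an unbroken core of 14 bases. How the authors assigned reads that fit more than 1 place is not stated, so the levels of the paralogs are uncertain in so far as reads can be shared. Strand did not separate the values where this could be checked. For miR-136-5p and miR-3071-3p, annotated on opposite strands of one place, the log2 levels were equal to within 0.005 in 12 of 12 libraries, and those of miR-486-3p and miR-3107-5p differed by a constant 0.07.

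Depth differed widely between libraries, which bears most on miR-378b. The table gave no reads, but its lowest values fell in steps of whole reads, from which 198342 to 6239604 miRNA reads per library were recovered in young and 123002 to 7515325 in aged muscle. Apart from young replicate 6, the young libraries had at most 550300 reads. Apart from aged replicate 5, the aged libraries had at least 1244537, so most aged libraries were deeper and depth is partly confounded with age. For miR-378a-3p this came to between 3565 and 251476 reads in a library, taking a length of 22 nucleotides. By contrast, miR-378b rested on 5 reads in aged replicate 5, the shallowest library, on 6 in young replicate 3 and on at most 400. The tissue label was checked against marker miRNAs. The summed level of 4 muscle fibre miRNAs (miR-1a-3p, miR-133a-3p, miR-133b-3p and miR-206-3p) ran from 4594296 to 7378276 FPKM in young and from 4496021 to 5333742 FPKM in aged muscle. Its medians were 5533145 FPKM in young and 5037575 FPKM in aged muscle. Most of this sum was miR-133a-3p, with means of 5367290 FPKM in young and 4709737 FPKM in aged muscle. The 4 white blood cell miRNAs summed to between 8449 and 19468 FPKM in young and between 11136 and 24904 FPKM in aged muscle, and the 3 red blood cell miRNAs to between 5828 and 10486 and between 3022 and 10507 FPKM. Liver miR-122-5p was at 0 in every young library and at most 34.3 FPKM in an aged one, and the 2 nerve miRNAs, each at 0 in some libraries, together reached at most 888 FPKM. The 2 endothelial miRNAs summed to a median of 366796 FPKM in young and 363390 FPKM in aged muscle, the 2 fibroblast miRNAs to 33638 and 34061 FPKM, and the 2 smooth muscle miRNAs to 5105820 and 5451206 FPKM, each with overlapping ages. The smooth muscle sum was thus about as large as the muscle fibre sum, so these sums do not tell the 2 kinds of muscle apart. Over the 12 libraries the white blood cell sum had r = 0.716 with miR-378a-3p, the highest of these groups, against 0.350 for the muscle fibre sum. The other groups ran from -0.138 for the fibroblast sum to 0.345 for the nerve sum. These values are a description, and the part of any of these cell types in the results was not tested. In whole muscle, fewer cells of a type and less RNA per cell cannot be told apart.

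The first question was how the family's output was divided. miR-378a-3p held nearly all of it. Of the summed FPKM of the family, it took 92.0% ± 0.396 in young muscle (SD, n = 6, as for the other shares here) and 92.0% ± 0.276 in aged muscle, with 5.12% ± 0.227 and 5.19% ± 0.336 from miR-378c, 2.09% ± 0.191 and 2.03% ± 0.196 from miR-378d, 0.676% ± 0.155 and 0.618% ± 0.101 from miR-378a-5p, and 0.135% ± 0.0367 and 0.141% ± 0.0129 from miR-378b. The order of levels, miR-378a-3p, miR-378c, miR-378d, miR-378a-5p and miR-378b, was the same in 12 of 12 libraries. No step of it was within the spread, since the lowest library of each member lay above the highest library of the next, by 3.65 log2 units between miR-378a-3p and miR-378c and by 0.42 between miR-378c and miR-378d, the narrowest gap. The plot of levels per library shows these steps.

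**Figure D1:**
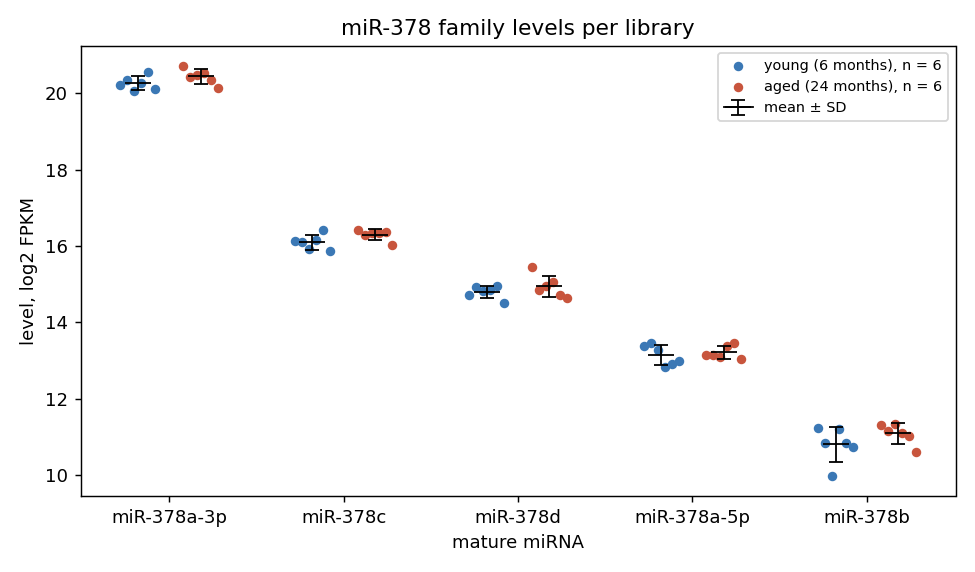
Level of each miR-378 family member as log2 FPKM (vertical axis), one point per library, for 6 young and 6 aged muscles, with bars for the mean ± SD. The members keep the same order at both ages, from miR-378a-3p near 20 to miR-378b near 11, and for each member the young and aged points overlap.

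Among all mature miRNAs, miR-378a-3p ranked 11 by mean FPKM over the 12 libraries, or 8 with the 4 rows of miR-486 and miR-3107, which are annotated at one place on opposite strands, counted once (a choice made after seeing the data). Directly above it was miR-26a-5p, with 1398437 ± 193680 FPKM (SD, n = 12) against 1353772 ± 188942 FPKM (SD, n = 12) for miR-378a-3p. These neighbours did not differ beyond their spread, and miR-26a-5p was the higher one in 6 of 12 libraries. Next below was miR-10a-5p with 1131565 ± 217881 FPKM (SD, n = 12), higher than miR-378a-3p in 2 of the 12. The ranks of the other members were 31 for miR-378c, 52 for miR-378d, 77 for miR-378a-5p and 133 for miR-378b. As a share of the summed FPKM of a library, the whole family made up 3.24% ± 0.502 (SD, n = 6) in young muscle, against 3.57% ± 0.589 (SD, n = 6) in the aged. Leaving the miR-3107 rows out of the sum gave 3.68% ± 0.505 and 4.10% ± 0.622 (SD, n = 6 each). Shares ran from 2.59% in young replicate 3 to 4.05% in young replicate 5, and from 2.99% in aged replicate 6 to 4.67% in aged replicate 1. The ages overlapped, with 5 of the aged shares inside the young range and aged replicate 1 above it.

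The main comparison asked whether the family differed between 6 and 24 months. No member passed the test. All 5 had a higher fitted level in aged muscle, with log2 changes from 0.07 to 0.28, and the limma adjusted p ran from 0.461 to 0.908 over 482 tested miRNAs. None of the 5 reached an unadjusted limma p of 0.05 either (lowest 0.0871), and exact permutation tests gave p from 0.0649 to 0.593 in the members. By comparison, 2.9% of the tested miRNAs were called at an adjusted p under 0.05, 12.9% had an unadjusted p under 0.05, and 55.4% had a fitted change above 0. Of the 133 at least as abundant as miR-378b, 62.4% had a change above 0, with a median of 0.08. Young and aged values overlapped in every member, and failed to overlap in 2.7% of the tested miRNAs. The median change was 0.18 in the 5 members and 0.07 in all 482. Since the members may share reads and were measured in the same libraries, their common sign is not 5 separate observations. Animals were separate, so the p-values measure the spread between mice together with that of library preparation.

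The guide strand miR-378a-3p had a lowest, median and highest log2 level of 20.07, 20.25 and 20.57 in young muscle. In aged muscle the values were 20.15, 20.47 and 20.71. The groups overlapped over most of their range, although 5 of 6 aged libraries were above the young median. Its mean was 1268587 ± 165916 FPKM (SD, n = 6) at 6 months and 1438957 ± 183288 FPKM (SD, n = 6) at 24 months. The fitted log2 difference was 0.18 with an SE of 0.13 (limma adjusted p = 0.571). The 95% interval of this change, -0.08 to 0.45, holds fold changes from 0.943 to 1.36. With quantile normalization the change was 0.11.

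For miR-378a-5p, the other strand of the same hairpin, the lowest, median and highest log2 levels were 12.83, 13.13 and 13.46 in young muscle and 13.05, 13.15 and 13.47 in aged muscle. The ages covered nearly the same range, with 4 of 6 aged libraries above the young median. Means were 9166 ± 1683 FPKM (SD, n = 6) at 6 months and 9544 ± 1173 FPKM (SD, n = 6) at 24 months. The log2 difference was 0.07 (SE 0.14, 95% interval -0.23 to 0.36, limma adjusted p = 0.908). Without the 2 libraries under 200000 recovered reads (young replicate 4 and aged replicate 5), a choice made after seeing the data, the change was -0.044, so it has no settled direction.

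Of the paralogs, miR-378c came nearest to a difference. Its log2 level had a lowest, median and highest value of 15.86, 16.12 and 16.41 in young and of 16.02, 16.35 and 16.42 in aged muscle. Apart from aged replicate 6, the aged libraries lay close together at 16.28 or above, and young replicate 5 lay among them. The mean was 70609 ± 9673 FPKM (SD, n = 6) in the young and 80814 ± 7510 FPKM (SD, n = 6) in the aged libraries. The log2 difference was 0.20 (SE 0.11, 95% interval -0.03 to 0.43, limma adjusted p = 0.461), and 0.063 with quantile normalization.

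The level of miR-378d, which carries the A6C difference in its seed, had a lowest, median and highest log2 value of 14.51, 14.83 and 14.96 in young muscle and of 14.65, 14.90 and 15.44 in aged muscle. Only aged replicates 1 and 4 exceeded the young range. Its log2 change was 0.14 (SE 0.13, 95% interval -0.13 to 0.41, limma adjusted p = 0.694), and it fell to 0.04 without aged replicate 1.

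The least abundant member, miR-378b, had a lowest, median and highest log2 level of 9.98, 10.84 and 11.22 in young muscle. The aged values were 10.60, 11.13 and 11.33. The lowest young value was that of replicate 3, at 6 reads, and the groups overlapped. Means were 1857 ± 506 FPKM (SD, n = 6) at 6 months against 2209 ± 375 FPKM (SD, n = 6) at 24 months. Its log2 change of 0.28 (SE 0.23, limma adjusted p = 0.664) had the widest interval of the family, from -0.19 to 0.75, and was 0.12 without young replicate 3.

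**Figure D2:**
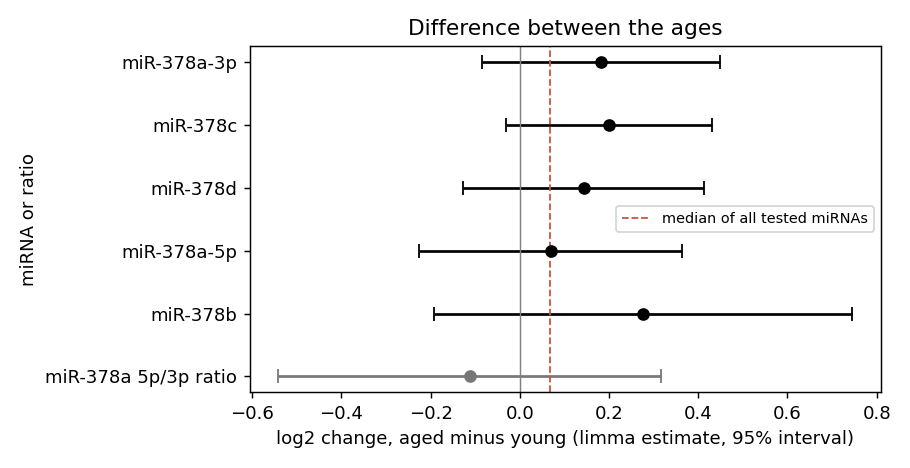
Log2 change from young to aged muscle (horizontal axis) for the 5 members and for the ratio of the 5p to the 3p arm of miR-378a, with points for the limma estimate and bars for its 95% interval. Every interval includes 0, and the dashed line marks the median change of 0.07 over all 482 tested miRNAs.

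The next comparison asked whether the arms of miR-378a kept their balance. Its hairpin (mm10, chromosome 18, 61397835 to 61397900, minus strand) lay in an intron of Ppargc1b, which is read from the same strand, and a predicted miRNA gene was annotated over it on the opposite strand, whose reads cannot be told apart without strand. The 3p strand was far the more abundant at both ages, with an FPKM 111-fold to 202-fold higher than that of the 5p strand in the young and 119-fold to 190-fold higher in the aged libraries. With the pseudocount in both arms, the log2 ratio of 5p to 3p was -7.12 ± 0.358 (SD, n = 6) at 6 months and -7.23 ± 0.240 (SD, n = 6) at 24 months. The change of -0.11 (SE 0.20, 95% interval -0.54 to 0.32) did not pass the test (limma adjusted p = 0.801 over 130 hairpins), where 0.769% of the hairpins were called and 13.1% had an unadjusted p under 0.05. The change was -0.25 with only libraries of at least 200000 recovered reads and -0.029 with quantile normalization. Of the 130 hairpins with both arms measured, miR-378a ranked 19 by the size of its imbalance (also 19 of 124 without 6 hairpins that lie opposite to another one), and the median size over hairpins was 2.97 log2 units.

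Across libraries, the members differed in how closely they followed miR-378a-3p. The log2 ratio of miR-378c to miR-378a-3p stayed between -4.29 and -3.99 in all 12 libraries, with a mean of -4.16 and an SD of 0.08, that is, miR-378c was 17.9-fold lower. Sampling of reads alone would give an SD of about 0.05 for this ratio. The ratio of miR-378d to miR-378a-3p had a mean of -5.49 and an SD of 0.13, 44.8-fold lower, against an SD of about 0.08 from sampling of reads. Among 1326 pairs of the 52 miRNAs at least as abundant as miR-378d, the median SD of such a ratio was 0.33. An SD smaller than that of miR-378c and miR-378a-3p was found for 0.754% of these pairs, and one smaller than that of miR-378d and miR-378a-3p for 3.24%. Rows annotated at one place were not counted once here, so pairs of such rows are part of these percentages. The SD was 0.005 for miR-486-5p and miR-3107-3p, and 0.012 for miR-486-5p and miR-486-3p. The pair of miR-378c and miR-378d was looser, with an SD of 0.18 and 11.5% of pairs below it. These shares describe the 12 libraries and are no test, and whether shared reads take part in the steadiness was not tested.

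The ratios of the other arm and of miR-378b to miR-378a-3p varied more between libraries, for miR-378b not beyond the read number. The log2 ratio of miR-378a-5p to miR-378a-3p ran from -7.66 to -6.80, with an SD of 0.30 against about 0.15 from sampling of reads. The lowest ratio was in young replicate 5, which had the highest miR-378a-3p of its age, and aged replicate 1, the highest of all in miR-378a-3p, had the lowest ratio of the aged libraries. For miR-378b the ratio ran from -10.09 to -8.99. Its SD was 0.30, where sampling of reads alone gives about 0.35, so no variation beyond the read number was detectable.

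**Figure D3:**
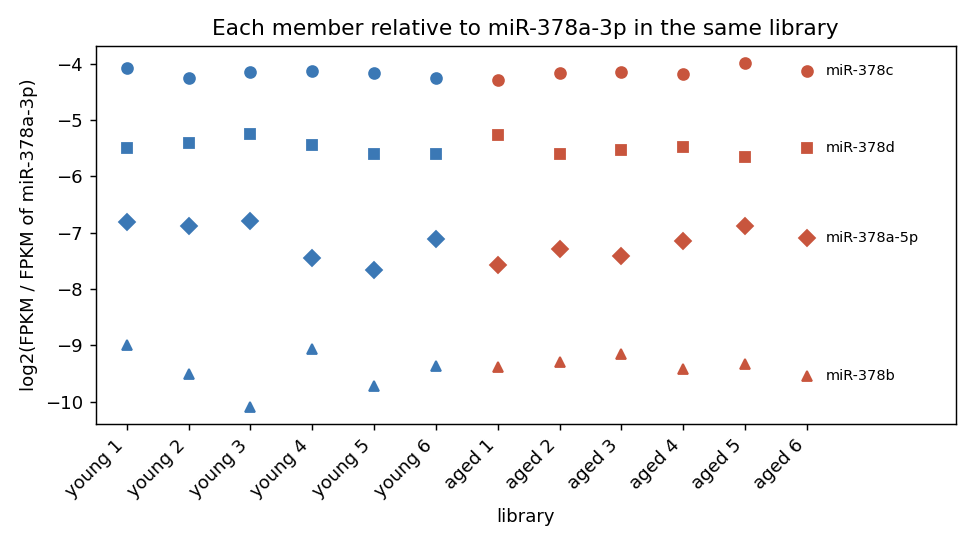
Log2 ratio of the FPKM of each member to that of miR-378a-3p in the same library (vertical axis), for 6 young (blue) and 6 aged (red) libraries. miR-378c and miR-378d form nearly level rows near -4.16 and -5.49, while miR-378a-5p and miR-378b scatter more, each with an SD of 0.30.

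The miRNAs whose pattern was most like that of miR-378a-3p were sought by Pearson's r of the log2 level over the 12 libraries, among 215 other miRNAs above 0 in all of them. These r are given as a description, without a test. All libraries share 1 scaling to mapped reads, so that miRNAs of one library are not independent of each other. For miRNAs above 0 in all libraries, the median deviation from their own mean log2 level was taken per library. It was highest of its age in young replicate 5 (0.22) and aged replicate 1 (0.18). It was lowest of its age in young replicate 3 (-0.20) and aged replicate 6 (-0.10). miR-378a-3p was also highest and lowest of its age in these libraries. The part of these shifts in the r was not tested. The 5 highest were miR-92a-3p (r = 0.953), let-7a-5p (0.940), let-7f-5p (0.936), let-7i-5p (0.925) and miR-378c (0.917), where the median over the 215 was 0.299. let-7 miRNAs are known as regulators of cell proliferation and of insulin signalling, and miR-92a belongs to the miR-17-92 cluster. The ratio of let-7f-5p to miR-378a-3p was as steady as that of miR-378c, with an SD of 0.08 in log2. None of the 4 outside the family was called between the ages (limma adjusted p from 0.196 to 0.398, unadjusted from 0.0137 to 0.0548). Within the ages, r with miR-378a-3p was 0.961 in young and 0.984 in aged muscle for let-7f-5p, and 0.935 and 0.861 for miR-378c, with 6 libraries each.

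Within the family, miR-378d followed at rank 7 (r = 0.839) and miR-378b at rank 36 (r = 0.647). Young libraries alone gave r = 0.707 for miR-378d and 0.408 for miR-378b, and aged libraries alone 0.931 and 0.893. The 5p arm of the same hairpin was at rank 153 of 215 with r = -0.02. At the other end were miR-191-5p (r = -0.897), miR-10b-5p (r = -0.763) and miR-1943-5p (r = -0.754). miR-10b-5p was the most abundant miRNA of the table. Aged replicate 1, with the highest miR-378a-3p level (20.71), had the lowest miR-191-5p level (18.29). Young replicate 3, with the lowest miR-378a-3p (20.07), had the highest miR-10b-5p (23.20).

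**Figure D4:**
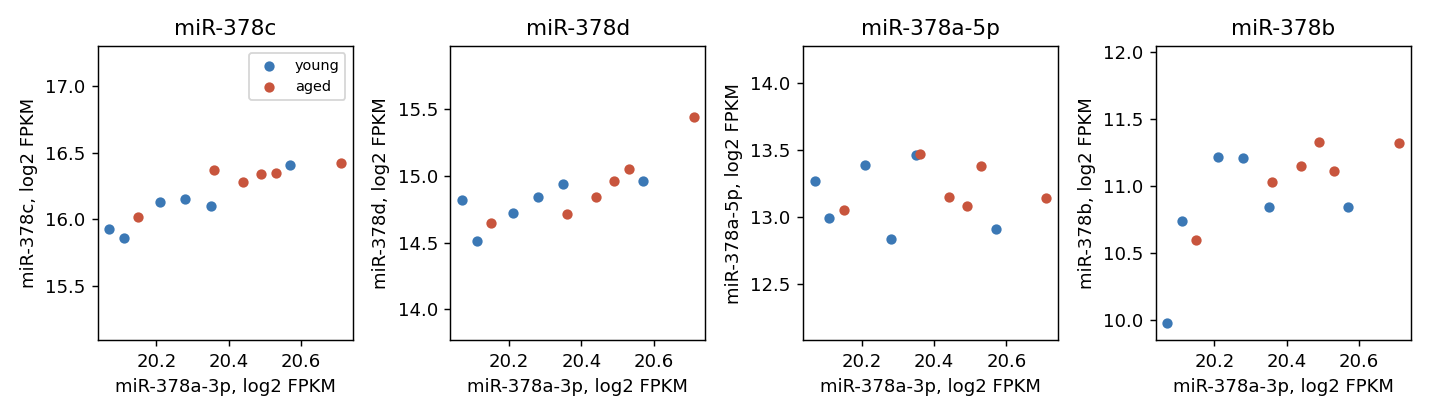
Log2 FPKM of miR-378c, miR-378d, miR-378a-5p and miR-378b (vertical axes, equal spans) against that of miR-378a-3p (horizontal axes), one point per library, young in blue and aged in red. miR-378c and miR-378d rise with miR-378a-3p (r = 0.917 and 0.839 over 12 libraries), and miR-378a-5p does not (r = -0.02).

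Other miRNAs linked to PGC-1, mitochondria or fibre metabolism were listed from general knowledge, with earlier results of these data known. Of 22 listed, 18 could be tested, of which 1 was called as higher in aged muscle and 0 as lower (by limma, 3 had an unadjusted p under 0.05). Over all tested miRNAs 0.622% were called as higher and 2.28% as lower, and 12.9% had an unadjusted p under 0.05. The called miRNA was miR-206-3p, a muscle-specific miRNA known from regeneration and denervation, at 1.54 on the log2 scale (SE 0.39, limma adjusted p = 0.0296). The next smallest p-values were those of miR-34a-5p, a p53-regulated miRNA that represses Sirt1 (log2 change 1.23, limma adjusted p = 0.0626), and of miR-23a-3p, which represses PGC-1α (0.38, limma adjusted p = 0.189). The study had itself reported miR-206-3p and miR-34a-5p as up-regulated in aged muscle from these libraries, so the list gives no independent support. The median log2 change of the 18 was 0.19 against 0.07 over all 482. miR-33-5p, which lies in an intron of Srebf2 and acts on fatty acid oxidation and cholesterol export, had a value of -0.92 (SE 0.54, limma adjusted p = 0.476). The fibre-type miRNAs within myosin genes, miR-208b-3p and miR-499-5p, had values of 1.29 (SE 0.89) and 0.79 (SE 0.60) with limma adjusted p of 0.552 and 0.613. Of those not tested, miR-485-5p was above 0 in 1 library, and miR-494-3p and miR-761 in 0 of 12.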

How the data were processed

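Small RNA of 12 gastrocnemius muscles was sequenced. As the study's methods state, adaptors were removed and reads aligned to mm10 by BWA under its defaults, and the authors derived an FPKM value per mature miRNA (miRBase annotation). The labels also name TopHat 2, with no role given. The deposited values are log2 of FPKM, with 0 standing for no read. Every sample column was used and was grouped by its label.

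Values were returned to the linear scale, with 0 left as 0, and genomic copies were summed (each miR-378 member has 1 row). Reads were recovered from the steps of low values with RefSeq lengths for 1603 of 1900 miRNAs and 22 nucleotides otherwise, including both arms of miR-378a. Among 3073 low values, those under 20 reads, 99.5% came to a whole number of reads to within 0.15. Intervals from read numbers cover counting error only. The SD from sampling of reads is the root of the mean of the summed reciprocals of the reads of both miRNAs, in log2.

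Levels were fitted as log2(FPKM + 48.2), 48.2 being the lowest nonzero FPKM of a library, as a median over the 12, for the 482 miRNAs above 0 in at least 5 libraries, with limma 3.58.1 in R 4.3.3 (trend, age as the only term). Tests were two-sided and p-values were adjusted after Benjamini and Hochberg, with a threshold of 0.05. Fold changes are on this scale, which understates those of low miRNAs. The arm ratio was fitted alike over 130 hairpins. Exact permutation tests ran over all splits of 6 against 6, so the smallest p is 0.00216. The fits were tested on simulated data. Python 3.11.15, pandas 2.3.3 and NumPy 2.4.6 were used, and coordinates and host genes came from GENCODE M21.

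Members, lists and alternatives were chosen with earlier results of these data known. Named are the members, the 5 most and 3 least like miR-378a-3p by r, its neighbours in rank, marker miRNAs, and from the metabolic list those called or with the smallest p. Named after their values were seen were miR-33-5p, miR-208b-3p, miR-499-5p and the untested ones. Numbers shared by the ages name different animals. Alternatives were other pseudocounts, filters, scalings and tests, a replicate block, depth as a covariate, zeros kept, separate copies, voom on recovered reads, each library left out, recovered reads in place of FPKM, the family share without miR-3107 and, chosen after seeing the data, only libraries of at least 200000 reads and rows of opposite strands counted once.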

Additional observations from a re-analysis of the deposited data

Results flagged for a closer look

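For the levels of the 5 members, their ratios to miR-378a-3p and the share of the family, the 6 libraries of each age were checked by Dixon's test for 1 value that stands apart. Of 20 such groups, 1 had one, where chance gives about 1. In aged replicate 6 the log2 level of miR-378c was 16.02 against 16.28 to 16.42 in the other aged libraries. miR-378a-3p was also at its lowest aged level there (20.15), and the ratio of miR-378c to it was -4.13, inside the range of the other libraries.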

How the results depend on the processing

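No member was called in any of 26 alternatives, and 129 of 130 fitted changes kept their direction. Part of this was fixed in advance. The other filters, replicate block, limma without trend, permutation test and separate copies cannot move a member's fitted change, only its p-value. The exception was miR-378a-5p, at -0.044 with only libraries of at least 200000 recovered reads. Unadjusted p-values under 0.05 arose only for miR-378c, without young replicate 5 (0.0186, limma adjusted p = 0.200) and without aged replicate 6 (0.0328, limma adjusted p = 0.343). Leaving out 1 library gave changes of 0.13 to 0.24 for miR-378a-3p, 0.01 to 0.13 for miR-378a-5p, 0.12 to 0.37 for miR-378b, 0.15 to 0.26 for miR-378c, 0.04 to 0.20 for miR-378d, and -0.22 to -0.05 for the arm ratio. Quantile normalization, which puts all libraries on 1 distribution, gave 0.11 for miR-378a-3p, 0.06 for miR-378c and 0.41 for miR-378b. The number of miRNAs called, 14, was 6 with a pseudocount of 1 or with zeros kept, 7 with no filter, 8 with a filter on the mean or depth as a covariate, 19 with quantile normalization, 17 with median-of-ratios scaling, 0 by the permutation test (66 at an unadjusted p under 0.05, limma 62), and 6 to 16 with 1 library left out. The number of hairpins called, 1, was 0 with a pseudocount of 1 (15 unadjusted), no filter (24), limma without trend (17) or the permutation test (19), 3 with a pseudocount of 482, 2 with a filter on the mean, and 0 to 4 with 1 library left out. Same-numbered libraries did not deviate together (r from -0.09 to 0.09 across miRNAs). A replicate block called 14 miRNAs and 2 hairpins. With 1 library of each age per number, it cannot move the fitted changes. For miR-378a-3p it gave a limma adjusted p of 0.673. The permutation test cannot give a p below 0.00216, so after adjustment it cannot call a single miRNA or hairpin on its own. Its 0 is therefore not comparable with the other counts. The cause of the other differences was not tested. Read number limits miR-378b most.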
